A study of Rattus norvegicus with 9 samples.

Results

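The comparison set cortex of rats at either simulated altitude against cortex of rats at sea level, and asked which genes moved alike at both altitudes. It used all 9 samples of the series: 3 from rats labelled hypoxic at 7 km and 3 from rats labelled hypoxic at 3 km formed 1 group of 6, and 3 from rats at sea level, labelled as normoxic, formed the other. The labels give the tissue as brain cortex for every sample and name no strain, sex, age, genotype or length of exposure. They number the replicates without saying whether each came from its own animal, so the p-values measure the spread between samples, which may be technical. A gene was counted as moving alike where the pooled test passed, all 6 altitude arrays lay on the same side of the sea level arrays, and the levels at 7 km and 3 km did not pass a test against each other.

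Low oxygen is sensed in cells through the hypoxia-inducible factors (HIFs), transcription factors whose alpha subunits are degraded when oxygen is plentiful and accumulate when it is scarce. Their targets include enzymes of glycolysis, glucose transporters and angiogenic factors, and their action shifts cells from mitochondrial oxidation towards glycolysis. Other systems respond as well: sterol synthesis needs molecular oxygen at several steps, beginning with squalene epoxidase, and metallothioneins, small proteins that hold zinc and copper, are induced by metals, glucocorticoids and oxidative stress. Oligodendrocytes, which build myelin at a high cost in lipid and energy, are a cell type known to be sensitive to lack of oxygen.

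Total RNA was measured on a 1-colour Illumina bead array with 22523 probes. A detection p-value under 0.05 was reached by 5881 to 6621 probes on each of 8 arrays, whose median signal was 121 to 159. Sea level replicate 3 stood apart, with 8170 probes detected, a median signal of 204 and Spearman correlations of 0.642 to 0.660 with the other arrays, which correlated at 0.969 to 0.978 among themselves. The comparison was therefore run with all 9 arrays and with 8, without that array. Levels are log2 intensities after background correction and quantile normalization. The dimmest probe above background lay at 7.37 to 7.44 on an array, so levels of 7.5 to 8 are close to background and their differences are compressed. Of the cell markers on the array, 4 of 10 of excitatory neurons and 9 of 14 of interneurons were detected on all 9 arrays. So were 9 of 12 of astrocytes, 18 of 23 of oligodendrocytes and myelin, and 6 of 13 of striatum. Slc17a7 of excitatory neurons, Gad1 of interneurons, Gfap of astrocytes and Mbp of myelin were among them. In contrast, 9 of 10 blood leukocyte markers were detected on none. Of 11 markers of choroid plexus, which is no part of cortex, 5 were detected on none of the arrays, 3 on 1 sea level array each, and Kcnj13 and Enpp2 on all 9. Ttr, the transthyretin of choroid plexus, was detected on 3 of 3 sea level arrays and 0 of 6 altitude arrays, near background on replicates 1 and 2 (7.67 and 7.45) and at 11.77 on replicate 3.

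With 9 arrays, 24 of 6656 tested probes passed in the pooled comparison at an adjusted p under 0.05 (0.361%), 5 of them higher at altitude (0.0751%) and 19 lower (0.285%). Of these, 20 carry a gene name. With 8 arrays 26 of 6499 passed (0.4%), 7 higher (0.108%) and 19 lower (0.292%), and 14 probes passed in both, 11 of them named. The 11 genes were Mt1, which rose, and Acat2, Sqle, Acss2, Scd, Omg, Itm2a, Enoph1, Fez1, Snrpa and Plekhg5, which fell. Of the 24, 23 could be tested with 8 arrays, and all 23 had the same sign there. The balance of directions was set partly by the processing: in the value table of the authors, 11 probes passed higher and 8 lower with 9 arrays, and 14 higher and 5 lower with 8. The counts also rested on single arrays: with 9 arrays as the start, 0 probes passed without 7 km replicate 3, 3 km replicate 1 or 3 km replicate 2, and 1 passed without sea level replicate 2. Acat2, Mt1 and Sqle passed in that table as well as in the main values, with 9 and with 8 arrays.

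**Figure D1:**
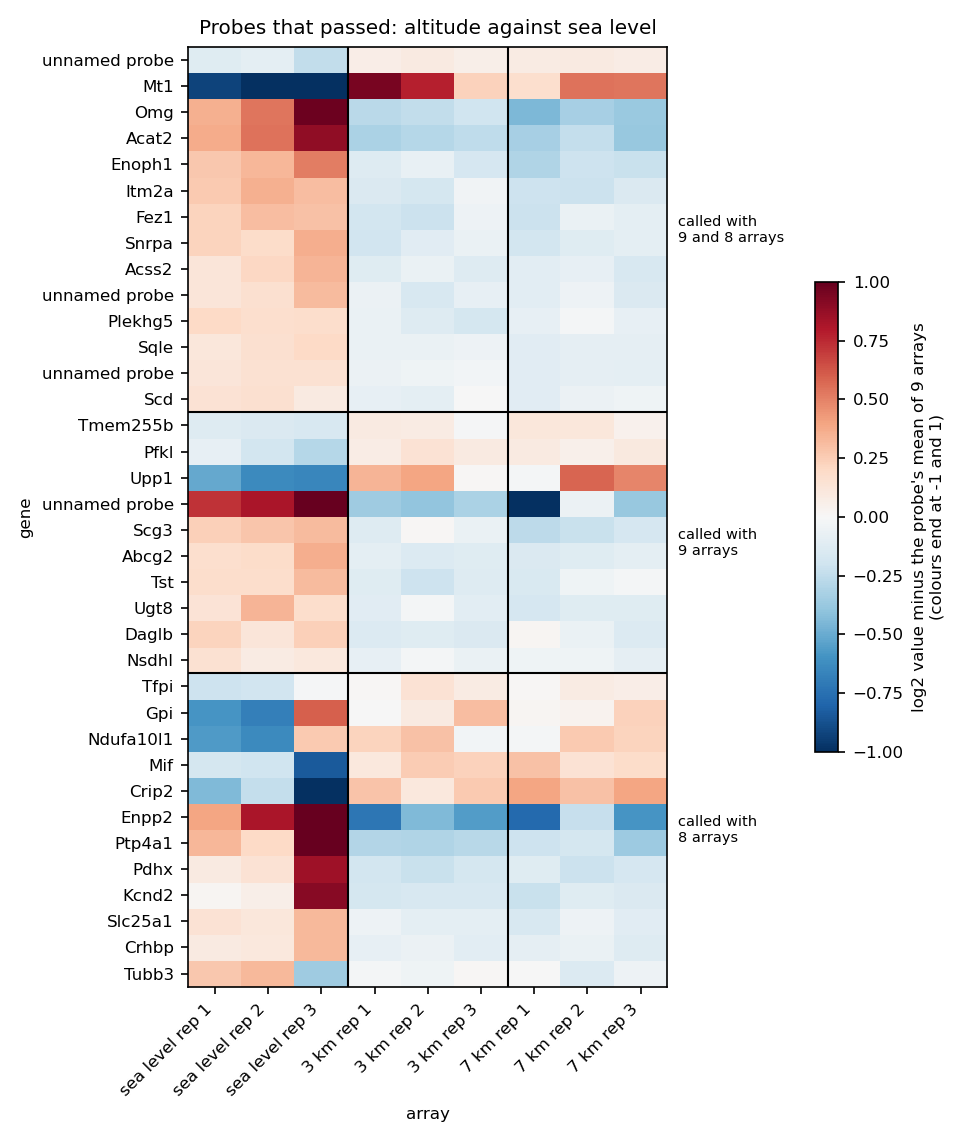
Each row is a probe that passed and each column an array, and colour gives the log2 level minus the mean of that probe over 9 arrays. Lines separate sea level, 3 km and 7 km arrays, and the rows are grouped by whether they passed with 9 and 8 arrays (14 probes), with 9 only (10) or with 8 only (12). The sea level columns mostly have the opposite colour to the altitude columns in the upper blocks. A single altitude array lies near the mean in Tmem255b and in Daglb, and 7 km replicate 1 and 3 km replicate 3 do in Upp1. In the lower block sea level replicate 3 differs from the other sea level arrays in several genes.

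All 24 probes met the full definition of moving alike, and so did all 26 with 8 arrays. The condition on 7 km against 3 km could leave out none, since 0 of 6656 and 0 of 6499 probes passed that test. The pooled fit also counts a difference between the altitudes as spread, which favours probes alike at both. Meeting the definition is therefore no separate result. Non-overlap alone was common: 654 of 6656 probes (9.83%) had all 6 altitude arrays on one side of the 3 sea level arrays, 4.63% above and 5.2% below. With 8 arrays 902 of 6499 (13.9%) did, 6.69% above and 7.19% below. Differences were above 0 for 48.6% of all probes with 9 arrays and for 51.8% with 8. The altitudes were then compared with each other, a contrast that holds no sea level array. No probe passed by limma (0 of 6656, 0%), 180 had an unadjusted p under 0.05 (2.7%), and every alternative setting also gave 0 except the authors' value table, which gave 1. With 8 arrays 0 of 6499 passed and 532 had an unadjusted p under 0.05 (8.19%). A difference that misses the threshold does not show equal levels. For the 24 probes the 95% intervals of 7 km minus 3 km lay within -0.69 (Mt1) and 0.50 (Upp1), and that of Scg3 left out 0. With 8 arrays the intervals of 3 of the 26 left out 0, namely Omg, Enoph1 and the unnamed probe ILMN_1358849, each lower at 7 km. Among the 24 probes the difference from sea level was further from 0 at 7 km in 17 and at 3 km in 7. Both altitudes are read against the same sea level arrays, so their values are given side by side and are no replication of each other. Tested alone with 9 arrays, 7 km passed for 8 probes (0.12%), 5 of them among the 24, and 3 km for 0 (0%).

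**Figure D2:**
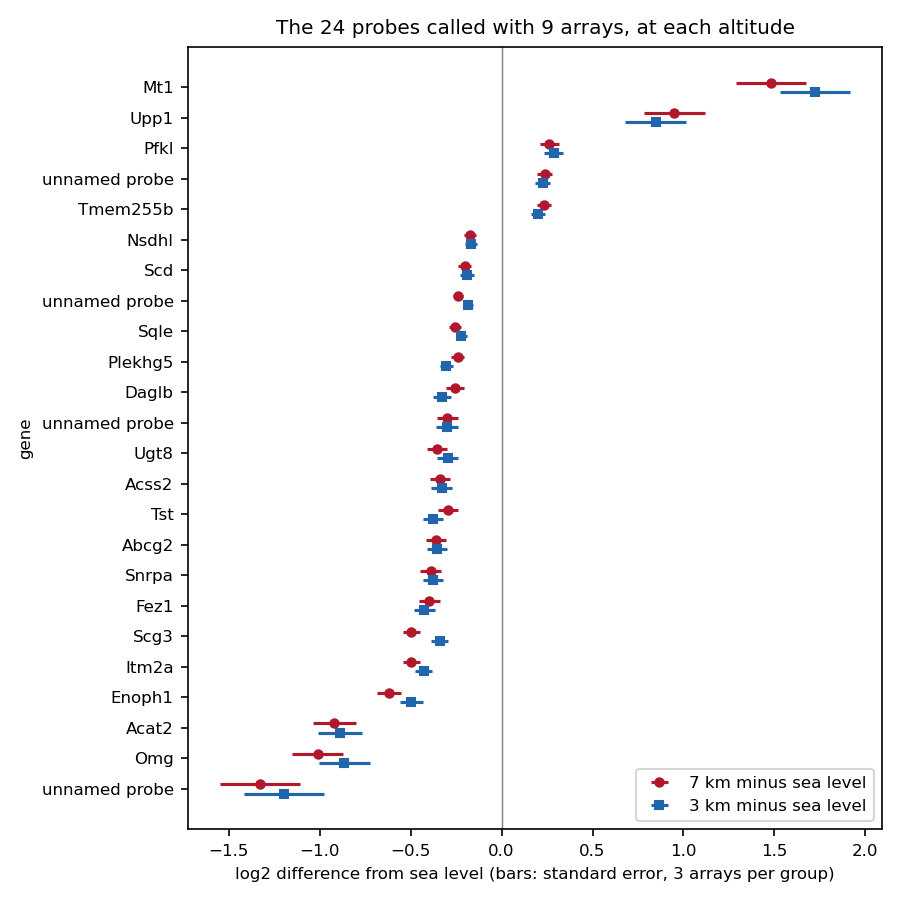
The log2 difference from sea level is plotted for each of the 24 probes that passed with 9 arrays, with 7 km as red circles, 3 km as blue squares and bars for the standard error (3 arrays per group). Both points lie on the same side of 0 for all 24, which the pooled test favours by its design. Only for Scg3 does the 95% interval of 7 km minus 3 km leave out 0.

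Mt1, a metallothionein, had the largest change of the 24 (probe ILMN_1367740). Its promoter is shown because metallothionein genes are textbook targets of the metal-responsive transcription factor, whose binding element has the core searched for here. RefSeq places it at chr19:10832926-10833225 on the minus strand (build GRCr8). The window runs from 250 bases before the transcription start to 50 after it, and capitals mark the metal response core TGCGCNC or TGCACNC on either strand.
Mt1 promoter: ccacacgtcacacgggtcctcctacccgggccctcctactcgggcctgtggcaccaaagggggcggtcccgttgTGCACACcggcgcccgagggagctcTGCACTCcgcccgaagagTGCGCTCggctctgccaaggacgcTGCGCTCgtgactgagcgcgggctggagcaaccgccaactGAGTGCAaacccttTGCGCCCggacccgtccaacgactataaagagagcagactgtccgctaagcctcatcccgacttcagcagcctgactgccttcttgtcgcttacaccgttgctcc
The core occurs 6 times in this window, at 176, 151, 133, 109, 69 and 55 bases before the start. Of 33469 rat promoters of the same length, 24.2% hold it at least once and 13 (0.0388%) hold it 6 or more times. Among the 28 passing genes with a promoter in the table, which mix rises and falls, 14 hold it, against 37% of the 4044 tested genes. A match is a description of the letters and not a measured binding site.

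Mt1 lay at 8.43, 8.23 and 8.19 at sea level, and at altitude it ran from 9.52 through a median of 9.89 to 10.30. Every altitude array was above every sea level array, by more than 1 log2 unit. The pooled rise was 1.60 ± 0.17 on the log2 scale (SE, 6 against 3 arrays), a 3.04-fold increase (limma adjusted p = 0.0187), and with 8 arrays it was 1.59 ± 0.22 (adjusted p = 0.0441). At 7 km the difference was 1.48 ± 0.19 and at 3 km 1.73 ± 0.19, with 7 km minus 3 km at -0.24 (95% interval -0.69 to 0.21). Of the other 7 tested genes of metallothioneins and metal handling, none passed, and the list had a median difference of 0.061 against -0.00437 over all probes.

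Cholesterol synthesis was the list with the most members passing with 9 arrays. Of the 13 tested members of cholesterol synthesis and uptake, 12 were lower at altitude (48.6% of all probes were higher). The 3 members that passed, all lower, were Acat2, Sqle and Nsdhl (0.285% of all probes passed lower). The median difference was -0.159 with 9 arrays, -0.146 at 7 km and -0.145 at 3 km, against -0.00437 over all probes. With 8 arrays, 11 of 11 tested members were lower, 2 passed and the median was -0.133, against 0.00158 over all probes. Many members lie near background, and how background was handled set the size of this value: it was -0.66 in the authors' value table and -0.428 without background correction. Its direction relative to all probes was the same under each scaling tried.

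Acat2, the thiolase that joins acetyl-CoA units at the start of the mevalonate pathway, measured 8.78, 8.95 and 9.30 at sea level. Its altitude values were tight, from 8.03 through 8.11 to 8.17, and lay wholly below. It fell by 0.90 ± 0.10 (1.87-fold lower, adjusted p = 0.0187), with -0.92 ± 0.12 at 7 km and -0.89 ± 0.12 at 3 km. The interval of 7 km minus 3 km ran from -0.31 to 0.25. With 8 arrays Acat2 had the lowest adjusted p of the genes described here (a fall of 0.73 ± 0.05, adjusted p = 0.0100).

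Sqle, squalene epoxidase, is the first enzyme of the pathway to consume molecular oxygen. It measured 7.73, 7.78 and 7.82 at sea level and 7.51 to 7.57 at altitude, with a median of 7.54. The groups did not overlap, although all 9 values were near background. It fell by 0.24 ± 0.03 (adjusted p = 0.0187), and by 0.16 ± 0.02 with 8 arrays (adjusted p = 0.0195). The interval of 7 km minus 3 km was -0.11 to 0.04. In the authors' value table, floored at 16 before log2, the difference was -0.93 ± 0.12 (adjusted p = 0.028).

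Nsdhl, a sterol dehydrogenase, measured 7.83, 7.77 and 7.79 at sea level and 7.59 to 7.67 at altitude. It fell by 0.17 ± 0.03 (adjusted p = 0.0471), and with 8 arrays had -0.13 ± 0.02 and did not pass (adjusted p = 0.0528). Mvd, which makes isopentenyl diphosphate, and Fdft1, squalene synthase, lie outside the rule for named genes and were picked after their values were seen, since their arrays did not overlap either. Of the 13 tested members of the list, 6 lay without overlap below sea level, as did 5.2% of all probes. Mvd had -0.26 ± 0.04 (adjusted p = 0.0592) and Fdft1 -0.25 ± 0.04 (adjusted p = 0.0743), so neither passed. With 8 arrays they had -0.18 ± 0.03 and -0.19 ± 0.04. For Fdft1 the interval of 7 km minus 3 km left out 0, at -0.19 to -0.02. Msmo1, an oxygen-using sterol oxidase, was the 1 member with a positive value (0.39 ± 0.41, adjusted p = 0.535), and is named for that although it lies outside the rule. Without sea level replicate 3 it had -0.29 ± 0.13 (adjusted p = 0.501).

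A further 3 genes of lipid metabolism passed in at least 1 of the fits, a grouping made after their values were seen. Acss2, which makes cytosolic acetyl-CoA from acetate, measured 7.96, 8.04 and 8.18 at sea level and 7.67 to 7.77 at altitude. It fell by 0.33 ± 0.05 (adjusted p = 0.0403) and by 0.22 ± 0.03 with 8 arrays (adjusted p = 0.0294), with an interval of -0.14 to 0.12 for 7 km minus 3 km. Scd, the desaturase that makes monounsaturated fatty acids with molecular oxygen, measured 7.70, 7.71 and 7.64 at sea level and 7.44 to 7.54 at altitude. Its fall was 0.20 ± 0.03 with 9 arrays (adjusted p = 0.0487) and 0.16 ± 0.02 with 8 (adjusted p = 0.0441). Scd has close paralogs whose transcripts the probe may share, which was not tested. Slc25a1, which exports citrate from mitochondria, passed with 8 arrays only, with a fall of 0.18 ± 0.02 (adjusted p = 0.0441), and had -0.29 ± 0.05 with 9 (adjusted p = 0.0626). Scd and Slc25a1 are outside the naming rule and are named because they passed. The sterol response sequence TCACNCCAC, searched on both strands, occurred in 1.12% of all promoters. Counted by gene, 1.19% of tested genes and 0 of the 28 passing genes held it. This says only that these letters are not in those windows.

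**Figure D3:**
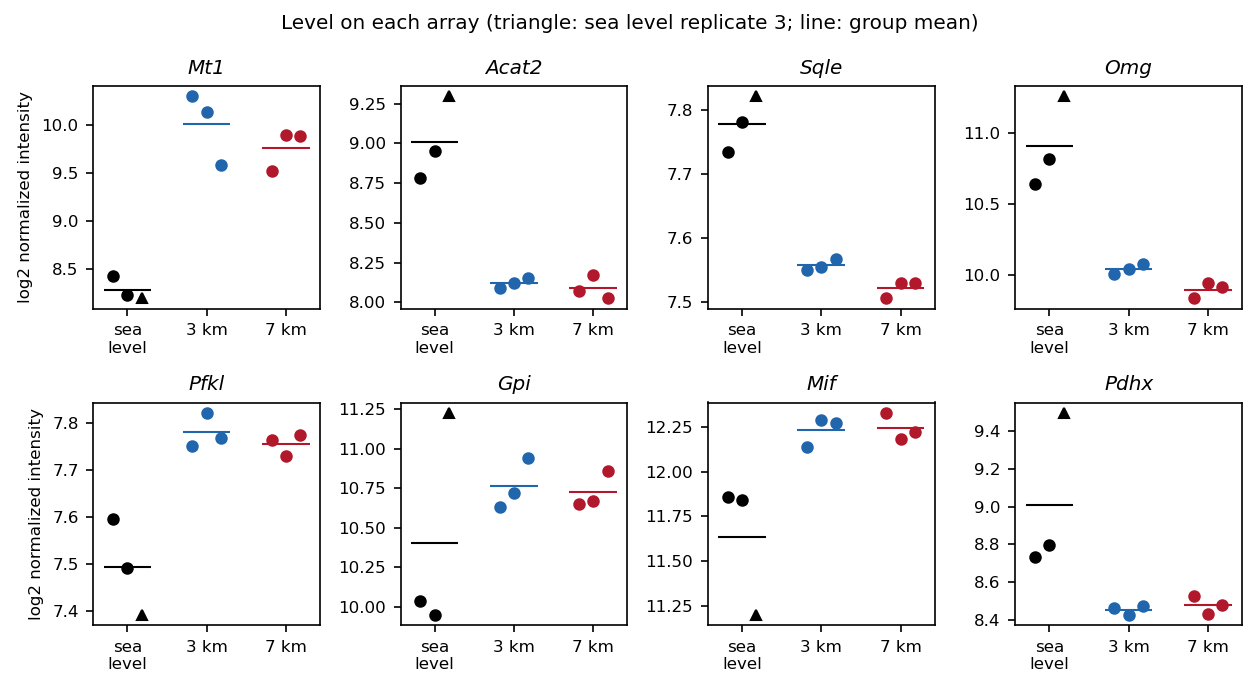
Log2 level on each array for 8 genes, by group, with the line at the group mean and sea level replicate 3 as a triangle. In Mt1, Acat2, Sqle, Omg and Pfkl the 6 altitude arrays lie apart from all 3 sea level arrays. In Gpi the triangle (11.23) lies above the altitude arrays while the other sea level arrays lie below them, and in Mif and Pdhx it lies further from the altitude arrays than the other sea level arrays do.

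Glycolysis genes were mostly higher at altitude. Of 14 tested members, 12 were higher and 1 passed with 9 arrays, with a median of 0.239 (0.184 at 7 km and 0.274 at 3 km). With 8 arrays 13 were higher, 1 passed and the median was 0.2. Over all probes 48.6% were higher and 0.0751% passed higher with 9 arrays, and 51.8% and 0.108% with 8. Scaling the 9 arrays to equal medians moved the median of all probes to -0.605 and that of glycolysis to -0.562, which left the list only 0.043 above it. The gene that passed with 9 arrays was Pfkl, the liver-type subunit of phosphofructokinase, and its promoter is shown because the HIF core, ACGTG or GCGTG on either strand (capitals), is the element tied to the hypoxia response. It lies at chr20:10663715-10664014 on the plus strand (GRCr8, RefSeq).
Pfkl promoter: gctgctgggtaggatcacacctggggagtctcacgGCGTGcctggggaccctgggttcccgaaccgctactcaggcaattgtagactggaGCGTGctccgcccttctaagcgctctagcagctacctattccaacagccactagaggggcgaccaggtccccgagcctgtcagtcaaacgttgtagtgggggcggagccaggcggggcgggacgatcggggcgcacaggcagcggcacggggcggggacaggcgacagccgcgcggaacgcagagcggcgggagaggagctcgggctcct
The core occurs here at 215 and 160 bases before the start. It is a common short sequence, found in 41.6% of all promoters. Counted by gene, 61.9% of tested genes and 22 of the 28 passing genes held it in at least 1 promoter. The 28 mix genes that rose and genes that fell, and the count was not split by direction. Holders included Mif and Tfpi, which rose, and Acat2 and Slc25a1, which fell. Crip2, Tmem255b and Upp1 rose and did not hold it. Slc25a1 held it 6 times, and 0.63% of all promoters hold it 6 or more times. A link of the core to either direction was not tested.

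Pfkl measured 7.59, 7.49 and 7.39 at sea level and 7.73 to 7.82 at altitude, with a median of 7.77. Its rise was 0.28 ± 0.04 (adjusted p = 0.0487), with 0.26 ± 0.05 at 7 km and 0.29 ± 0.05 at 3 km, and an interval of -0.15 to 0.10 between them. Without sea level replicate 3, its lowest array, the difference was 0.17 ± 0.02 and did not pass (adjusted p = 0.0528). Gpi, phosphoglucose isomerase, rested on the same array in the other direction. It measured 10.04, 9.95 and 11.23 at sea level and 10.63 to 10.94 at altitude, so replicate 3 alone lay above the altitude arrays. The difference was 0.34 ± 0.26 with 9 arrays (adjusted p = 0.400) and a rise of 0.79 ± 0.09 with 8 (adjusted p = 0.0272). Among the members that did not pass, Gapdh had 0.25 ± 0.06 and Pfkp, the platelet-type phosphofructokinase, 0.28 ± 0.06. Each was without overlap between the groups, as were 4.63% of all probes in that direction. With 8 arrays they had 0.28 ± 0.08 and 0.33 ± 0.07.

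Genes of the mitochondrial stages were mostly lower, while 48.6% of all probes were higher with 9 arrays and 51.8% with 8. Of 20 tested genes of pyruvate dehydrogenase and the TCA cycle, 18 were lower and 0 passed with 9 arrays. Their median was -0.175, or -0.247 at 7 km and -0.118 at 3 km. With 8 arrays 17 were lower and the median was -0.0519, or -0.108 at 7 km and -0.0298 at 3 km. There 1 gene passed, lower, as did 0.292% of all probes. That gene was Pdhx, which anchors a subunit of the pyruvate dehydrogenase complex, at 8.73, 8.80 and 9.50 at sea level and 8.43 to 8.53 at altitude. It fell by 0.30 ± 0.03 with 8 arrays (adjusted p = 0.0195) and had -0.54 ± 0.15 with 9 (adjusted p = 0.241), where sea level replicate 3 was the highest array. Of 49 genes of the respiratory chain and ATP synthase, 41 were lower and 0 passed, with a median of -0.308 at 7 km and -0.109 at 3 km. Without sea level replicate 3, 35 were lower, the pooled median went from -0.223 to -0.0794, and the medians were -0.148 at 7 km and -0.00182 at 3 km, so the lower level at 3 km rested on that array. Against the direction of the list, Ndufa10l1, a complex I subunit-like gene, rose by 0.79 ± 0.10 with 8 arrays (adjusted p = 0.0419), and had 0.47 ± 0.19 with 9 (adjusted p = 0.3). Its probe may also bind transcripts of the related gene Ndufa10, which was not tested. Upp1, uridine phosphorylase, which releases ribose phosphate from uridine, measured 7.76, 7.63 and 7.62 at sea level and 8.25 to 8.85 at altitude. It rose by 0.90 ± 0.14 with 9 arrays (1.86-fold, adjusted p = 0.0487), while with 8 arrays the difference was 0.77 ± 0.17 (adjusted p = 0.166).

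Oligodendrocyte and myelin genes had the lowest median of the 33 lists plotted here. Of 19 tested members, 15 were lower and 2 passed with 9 arrays, both lower, with a median of -0.362. With 8 arrays 16 were lower, 2 passed and the median was -0.265. Over all probes 48.6% were higher and 0.285% passed lower with 9 arrays, and 51.8% and 0.292% with 8. The list was lower at both altitudes but further at 7 km (-0.559) than at 3 km (-0.274). Of the 19, 8 had an unadjusted p under 0.05 for 7 km against 3 km (2.7% of all probes did), and 11 with 8 arrays (8.19% of all probes did). Summarised per array against the mean of 8 arrays, the list lay at 0.277 to 0.467 at sea level, -0.0196 to 0.209 at 3 km and -0.440 to -0.0827 at 7 km, with no overlap between the 3 groups. In bulk tissue, fewer cells of a type and less RNA per cell cannot be told apart, and neither can a different share of white matter in the dissected piece.

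Omg, a glycoprotein of the myelin surface and of neurons, was the one member that passed in both fits. It measured 10.64, 10.82 and 11.26 at sea level and ran from 9.84 through 9.98 to 10.08 at altitude, without overlap. It fell by 0.94 ± 0.12 (1.92-fold lower, adjusted p = 0.0265), and by 0.80 ± 0.08 with 8 arrays (adjusted p = 0.0195). At 7 km the difference was -1.01 ± 0.14 and at 3 km -0.87 ± 0.14, with an interval of -0.47 to 0.18 between them. With 8 arrays that interval was -0.28 to -0.02, so Omg was then lower at 7 km before adjustment, though not after it. Ugt8, which makes the myelin lipid galactocerebroside, measured 7.78, 7.97 and 7.81 at sea level and 7.47 to 7.61 at altitude. It fell by 0.33 ± 0.05 (adjusted p = 0.0466), and with 8 arrays had -0.27 ± 0.04 (adjusted p = 0.0757).

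Enpp2, autotaxin, which makes the signalling lipid lysophosphatidic acid, is made by oligodendrocytes and by choroid plexus. It measured 10.40, 10.82 and 12.12 at sea level and 9.22 to 9.78 at altitude. Its fall was 1.21 ± 0.17 with 8 arrays (2.31-fold lower, adjusted p = 0.0441), and with 9 arrays it had -1.66 ± 0.33 (adjusted p = 0.114). Ttr was highest on the same array as Enpp2, sea level replicate 3. It did not pass with 9 arrays (limma adjusted p = 0.307) and was not tested with 8. Kcnj13, a potassium channel of choroid plexus, had 0.15 ± 0.07 with 9 arrays and 0.04 ± 0.04 with 8. Ttr was detected on sea level arrays only, near background on replicates 1 and 2. The part of choroid plexus in the differences of Enpp2, Omg and Ugt8 was not tested, with 9 or with 8 arrays.

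**Figure D4:**
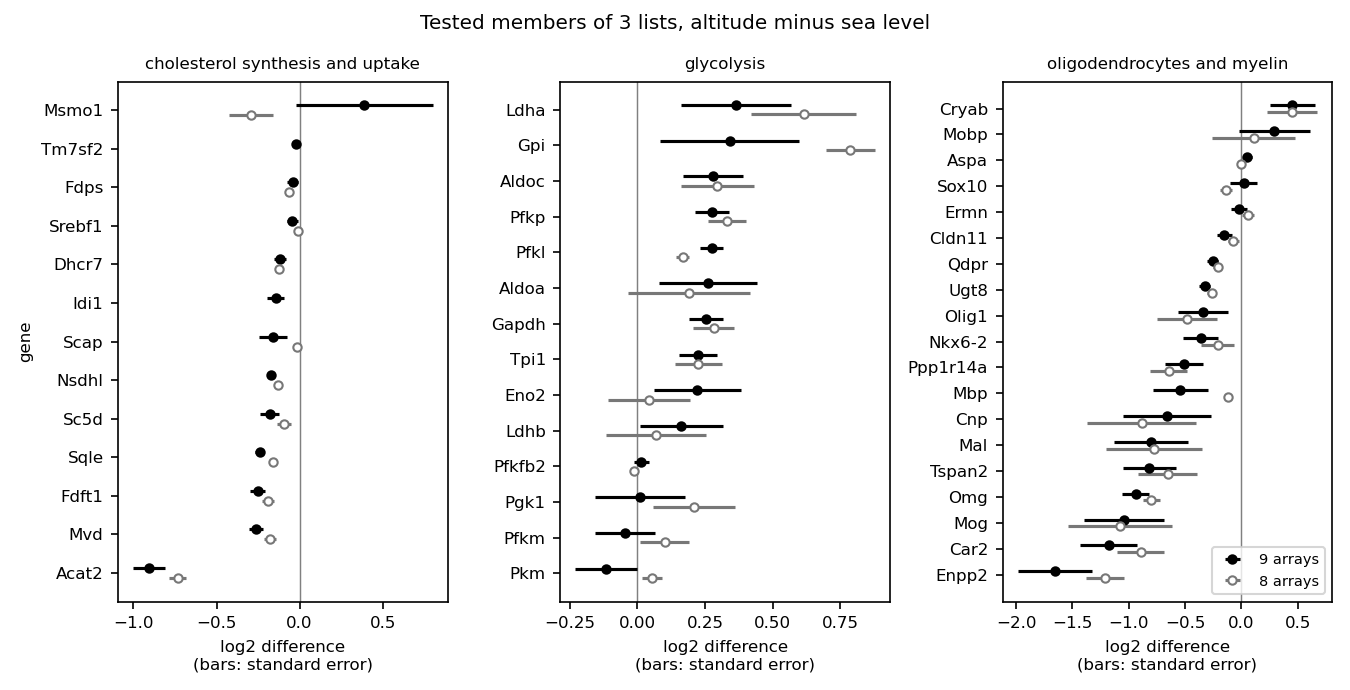
Log2 difference of each tested member of 3 gene lists, altitude minus sea level, with 9 arrays (filled) and 8 arrays (open) and bars for the standard error. Cholesterol genes lie left of 0 apart from Msmo1 with 9 arrays (0.39), glycolysis genes mostly right of it, and oligodendrocyte genes spread furthest to the left, down to Enpp2 (-1.66 with 9 arrays).

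Of 10 tested striatal markers, 9 had higher values at altitude and 0 passed, with a median of 0.282, or 0.0803 at 7 km and 0.53 at 3 km. With 8 arrays 10 of 10 were higher, 0 passed and the median was 0.259 (51.8% of all probes were higher, and 48.6% with 9). A difference of the list between altitudes was not tested. Their mean per array was -0.711 to -0.0946 at sea level, 0.256 to 0.742 at 3 km and -0.655 to 0.431 at 7 km, where replicate 3 alone lay above the sea level arrays. Rgs9, a signalling regulator of striatal neurons, had 7 km minus 3 km at -2.14 (interval -3.79 to -0.50). Their part in any difference described here was not tested.

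Genes of vessels and of blood clotting fell on both sides. Itm2a, a membrane protein of brain endothelium, measured 7.96, 8.06 and 8.01 at sea level and 7.48 to 7.66 at altitude, with a median of 7.54. It fell by 0.46 ± 0.04 (1.38-fold lower, adjusted p = 0.0187), and by 0.36 ± 0.04 with 8 arrays (adjusted p = 0.0220), with an interval of -0.18 to 0.04 for 7 km minus 3 km. Abcg2, a drug efflux transporter of the blood-brain barrier, was above background on 3 of 3 sea level arrays (7.68, 7.69 and 7.88) and 0 of 6 altitude arrays. It was at least 1.25-fold lower at altitude. It entered the test through the sea level arrays alone, where it is high, so its place among the 24 is no support, and with 8 arrays it was not tested. The unnamed probe ILMN_1358849, detected on 3 of 3 sea level arrays and 1 of 6 at altitude, has the same limit. Tfpi, the inhibitor of tissue factor that starts clotting, measured 7.44, 7.46 and 7.63 at sea level and 7.66 to 7.80 at altitude. It rose by 0.20 ± 0.03 with 8 arrays (adjusted p = 0.0484), and had 0.20 ± 0.05 with 9 (adjusted p = 0.179). Its relative Tfpi2, which the series title names, was detected on 0 of 9 arrays. Among endothelial markers, 4 of 6 were higher (48.6% of all probes were), so Itm2a went against its list, whose other members did not pass. Podxl, an endothelial sialoprotein, had 0.35 ± 0.07 (adjusted p = 0.0977) and Vwf, von Willebrand factor, 1.75 ± 0.49 (adjusted p = 0.249). Without sea level replicate 3, the lowest array for Vwf at 7.71, they had 0.31 ± 0.07 and 1.05 ± 0.27.

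Of the passing genes, 6 with known roles in neurons were lower, a grouping made after their values were seen. Fez1, an adaptor for axonal transport and the brightest of the genes that passed in both fits, measured 12.21, 12.29 and 12.28 at sea level and 11.77 to 11.93 at altitude. It fell by 0.41 ± 0.05 (1.33-fold lower, adjusted p = 0.0187) and by 0.40 ± 0.05 with 8 arrays (adjusted p = 0.0441), with -0.40 ± 0.06 at 7 km, -0.42 ± 0.06 at 3 km and an interval of -0.10 to 0.16 between them. Its levels lie far above background. Scg3, a granin of dense-core vesicles, measured 10.06, 10.10 and 10.14 at sea level and 9.56 to 9.83 at altitude. It fell by 0.42 ± 0.06 (adjusted p = 0.0403), had -0.42 ± 0.07 with 8 arrays (adjusted p = 0.0846), and was the least alike of the 24, with 7 km minus 3 km at -0.15 (interval -0.26 to -0.05). Daglb, which makes an endocannabinoid, fell by 0.29 ± 0.04 (adjusted p = 0.0471), and had -0.25 ± 0.04 with 8 arrays (adjusted p = 0.0863).

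A further 3 neuronal genes passed with 8 arrays only. Tubb3, the neuronal beta tubulin, fell by 0.31 ± 0.03 (adjusted p = 0.0256), but with 9 arrays it had -0.12 ± 0.14, since sea level replicate 3 (7.80) lay below the altitude arrays and the other sea level arrays (8.43 and 8.48) above them. Kcnd2, a voltage-gated potassium channel, fell by 0.18 ± 0.02 (adjusted p = 0.0441), and Crhbp, which binds the stress peptide CRH, by 0.13 ± 0.02 (adjusted p = 0.0320). Kcnd2 and Crhbp are outside the naming rule and are named because they passed. With 9 arrays they had -0.49 ± 0.18 and -0.26 ± 0.05 and did not pass.

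Enoph1, an enzyme of the methionine salvage pathway, which recycles the sulphur of methionine spent on polyamines, measured 8.51, 8.57 and 8.75 at sea level and 7.94 to 8.16 at altitude. It fell by 0.56 ± 0.06 (1.47-fold lower, adjusted p = 0.0187), and by 0.45 ± 0.05 with 8 arrays (adjusted p = 0.0255). The interval of 7 km minus 3 km was -0.27 to 0.03 with 9 arrays and -0.18 to -0.03 with 8. It was the 1 gene of 13 tested in methionine salvage and polyamines to pass. Smox, spermine oxidase, had 0.73 ± 0.14 (adjusted p = 0.108), and Azin1, an inhibitor of the antizymes that restrain polyamine synthesis, -0.26 ± 0.04 (adjusted p = 0.0658), and with 8 arrays they had 0.65 ± 0.17 and -0.17 ± 0.03. Tst, a mitochondrial sulphur transferase, fell by 0.34 ± 0.05 (adjusted p = 0.0470), and had -0.25 ± 0.04 with 8 arrays (adjusted p = 0.0757).

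The remaining named genes have varied roles. Snrpa, a protein of the spliceosome, measured 8.00, 7.96 and 8.14 at sea level and 7.59 to 7.71 at altitude. It fell by 0.38 ± 0.05 (adjusted p = 0.0237), and by 0.26 ± 0.03 with 8 arrays (adjusted p = 0.0221). Plekhg5 fell by 0.27 ± 0.03 (adjusted p = 0.0260), and by 0.22 ± 0.03 with 8 arrays (adjusted p = 0.0441). Tmem255b, a membrane protein, rose by 0.22 ± 0.03 (adjusted p = 0.0457), with 0.15 ± 0.03 on 8 arrays (adjusted p = 0.0800). With 8 arrays only, Mif, a cytokine, rose by 0.39 ± 0.05 (adjusted p = 0.0360), Crip2, a LIM domain protein, rose by 0.66 ± 0.09 (adjusted p = 0.0441), and Ptp4a1, a phosphatase, fell by 0.54 ± 0.05 (adjusted p = 0.0195). With 9 arrays their differences were 0.61 ± 0.14, 0.87 ± 0.16 and -0.81 ± 0.17, larger but more spread, and sea level replicate 3 was the sea level array furthest from the altitude group in each. A further 4 unnamed probes passed with 9 arrays, 1 higher and 3 lower.

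**Figure D5:**
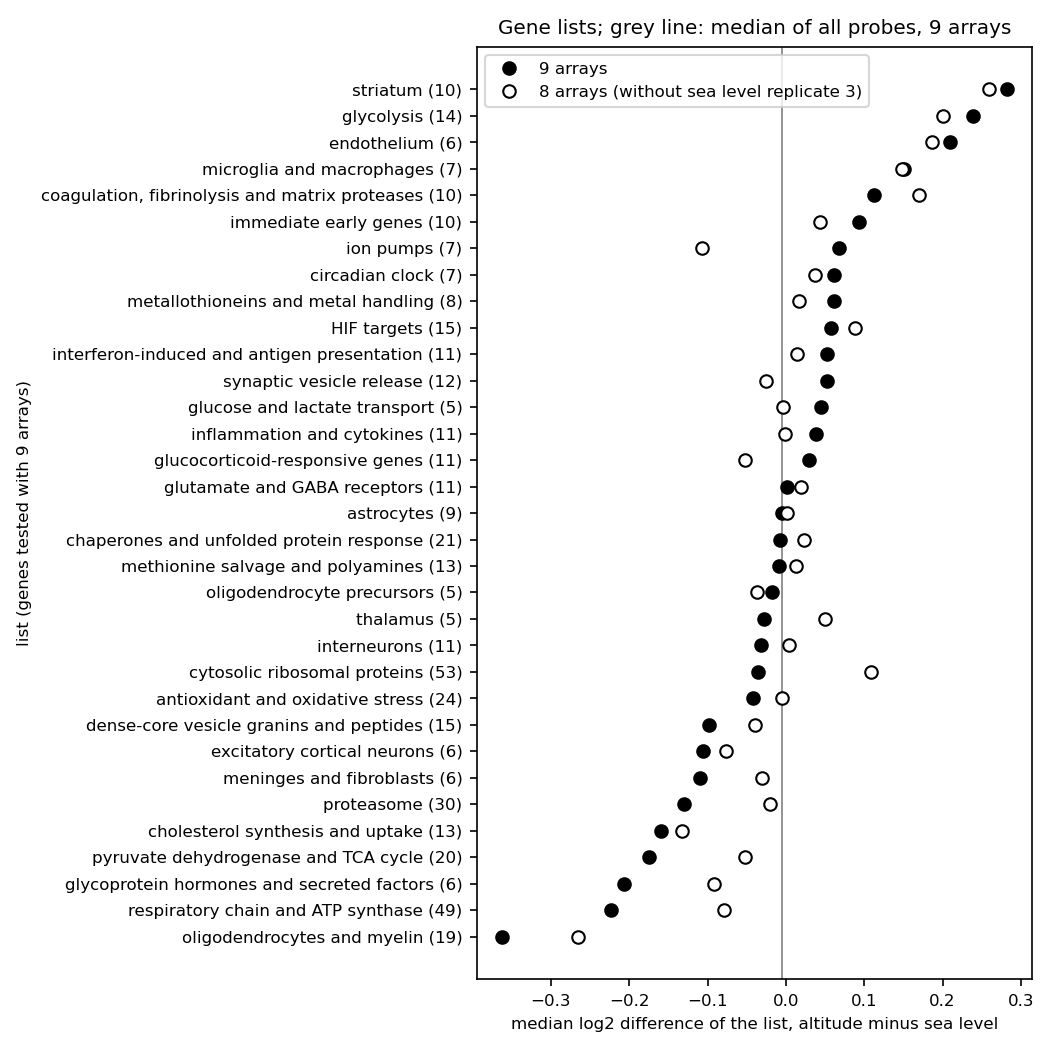
Median log2 difference, altitude minus sea level, of each gene list with 5 or more tested genes in the fit of 9 arrays (filled) and for the same list in the fit of 8 (open). The number tested is in brackets and the grey line marks the median of all probes (-0.00437). Oligodendrocyte genes lie lowest (-0.362 and -0.265), and striatum (0.282) and glycolysis (0.239) highest with 9 arrays, while ribosomal proteins and ion pumps lie on opposite sides of the line in the 2 fits.

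Hif1a, the oxygen-regulated subunit of HIF, had -0.07 ± 0.03 (adjusted p = 0.3), and Vegfa, the main angiogenic growth factor, 0.02 ± 0.03 (adjusted p = 0.725), both close to background. With 8 arrays they had -0.04 ± 0.02 and 0.03 ± 0.02. Slc2a1, the glucose transporter of the blood-brain barrier, was detected on 0 of 9 arrays, and Epas1 and Hmox1 were each detected on 1, sea level replicate 3. Over all probes 48.6% were higher with 9 arrays and 51.8% with 8. Of 15 tested HIF targets, 12 were higher and 0 passed, with a median of 0.0578 (13 higher, 0 passed and 0.0884 with 8 arrays). By altitude the median was 0.113 at 7 km and -0.00601 at 3 km with 9 arrays, and 0.101 and 0.0475 with 8. The pooled values therefore do not show a rise at both altitudes with 9 arrays. Scaling the 9 arrays to equal medians put the pooled median 0.064 below that of all probes instead of above. Stc1, a secreted hormone, had 0.35 ± 0.07 (adjusted p = 0.109) and 0.24 ± 0.06 with 8 arrays (adjusted p = 0.228). Its interval of 7 km minus 3 km left out 0, at 0.05 to 0.30. In the authors' value table, where low values were floored before log2, Stc1 rose by 2.43 ± 0.34 (adjusted p = 0.028). The part of the floor in this size was not tested.

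Immediate early genes, switched on within minutes by neuronal activity, were mostly higher without passing. Of 10 tested, 8 were higher, 4 without overlap between the groups, with a median of 0.0939. For all probes the shares were 48.6% higher and 4.63% without overlap above, and the median was -0.00437. Leaving out sea level replicate 3, the lowest array for Junb, Arc and Egr2, 7 of the 10 genes were higher, against 51.8% of all probes. Their median was then 0.0436. Junb had 1.10 ± 0.26 (adjusted p = 0.179), Arc 1.22 ± 0.36 (adjusted p = 0.266) and Egr2 1.03 ± 0.26 (adjusted p = 0.205), and with 8 arrays they had 0.76 ± 0.19, 0.74 ± 0.25 and 0.90 ± 0.32. Of 7 microglial markers 6 were higher and 0 passed, and C1qb, a complement subunit, came nearest with 0.44 ± 0.07 (adjusted p = 0.0592), or 0.37 ± 0.08 with 8 arrays (adjusted p = 0.154). Ribosomal protein genes showed how far a list could turn on sea level replicate 3: 22 of 53 were higher with 9 arrays (median -0.0358) and 47 of 53 with 8 (median 0.109), and 0 passed in either fit.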

How the data were processed

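Cortex RNA of 9 rat samples was turned into biotinylated cRNA, per the labels' protocols. The deposited non-normalized table holds an intensity and a detection p-value per probe and array, per the file headers; the sources used here name no scanner, software or slide. A second table deposited by the authors holds 1 value for each of 21675 probes and array and was an alternative. Its columns rank probes like the intensity columns, hold negative values and have medians of -23 to 19.5 and means of 207.8 to 209.1, which was read as background-subtracted linear intensity; the normalization behind the near-equal means is unstated. It was floored at 16 before log2. From the intensities, neqc of limma 3.58.1 (R 4.3.3) inferred negative controls from detection p-values, added an offset of 16, quantile normalized and took log2. Probes with a detection p-value under 0.05 on 3 or more arrays were tested, 6656 with 9 arrays and 6499 with 8, which were normalized again. One limma model (lmFit, eBayes) compared 6 altitude with 3 sea level arrays; a model with a mean per group gave the values per altitude and 7 km against 3 km. P-values were adjusted by Benjamini-Hochberg over all tested probes, at 0.05; ± gives standard errors. The number of arrays limits precision.

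Of all probes, 13353 have 1 gene symbol in the platform annotation, 0 several and 9170 none; 13313 matched RefSeq. No named gene had a further tested probe. In 39 gene lists each gene had 1 probe, its brightest, and lists got counts and medians only. Named genes were the 12 largest passing rises and falls per fit without overlap, filled up to 8 by p, up to 3 members per list, and 8 fixed genes. Members, lists and rule were chosen with earlier results of these data known. A probe at background on a whole group has a bound: the brighter group's mean, over the dim group's mean of its own value or each array's dimmest detected level, whichever is higher. On simulated data the 9-array test recovered 74% of 100 probes changed by 0.5 and 96% of 100 changed by 1 on the log2 scale (85% and 96% with 8 arrays), with 6 false calls each. The simulated noise was independent, its spread was smoothed over probes of like level, and no array stood apart. The real arrays differ in this, so these shares check the code and do not give the power or error rate here. The labels do not say whether replicate numbers pair the samples, and the main fits treat them as unpaired. Deviations of same-numbered arrays correlated at 0.0131 to 0.305, over 0.1 in 3 of 9 pairs. Differently numbered arrays were not set beside them, so these values do not settle the pairing. Alternatives changed arrays, model, background, offset, scaling, filter, source of values and variance model.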

Additional observations from a re-analysis of the deposited data

Results flagged for a closer look

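Among 87 probes checked in the 6 altitude arrays, 2 had an array set apart from the others; chance flags about 1 in 20. The unnamed probe ILMN_1376480, which passed lower with 9 arrays, had its lowest altitude value on 7 km replicate 1, at 10.19 with the next at 10.82. Rps18, a ribosomal protein gene that did not pass, had its highest on 3 km replicate 1, at 12.07 with the next at 11.95.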

How the results depend on the processing

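The number of probes that passed depended strongly on single arrays and settings. With 9 arrays (24 passed), leaving out 1 array gave 0 to 26: 0 without 7 km replicate 3, 3 km replicate 1 or 3 km replicate 2, 1 without sea level replicate 2, 6 without 7 km replicate 2, 11 without 3 km replicate 3, 14 without sea level replicate 1 and 15 without 7 km replicate 1. With 8 arrays (26 passed) the range was 0 to 38: 0 without 3 km replicate 1 or sea level replicate 2, 1 without 7 km replicate 3 or sea level replicate 1, 4 without 7 km replicate 2 and 7 without 3 km replicate 2. The cause was not tested. With 9 and 8 arrays, a mean per group gave 14 and 13, scaling to equal medians 0 and 0 by limma (132 and 231 at an unadjusted p under 0.05), no filter on dim probes 12 and 14, and array weights 231 and 56. Detection on 6 or more arrays gave 12 with 9 arrays. No background correction gave 48 and eBayes with trend and robust 58 with 8 arrays. The replicate block, which treats same-numbered arrays as belonging together, left 3 with 9 arrays and 3 with 8. Whether the numbers pair the samples is not known. In 7 km against 3 km, leaving out any 1 array gave 0, and 1 probe, lower, passed with the values of the authors. With 9 arrays, equal-median scaling put the median of all probes at -0.605, and the unnamed probe ILMN_1349474, which passed higher, had -0.50 there, above that median. No other result named in the text changed from a passing rise to a fall or the reverse. Mt1, Acat2 and Itm2a with 9 arrays passed in 13 of 19 alternatives each, Sqle in 12 and Pfkl and Nsdhl in 3. Sqle, Nsdhl, Scd, Pfkl and Itm2a, whose levels lay close to background, had larger differences without background correction. The part of low signal and of the correction step in these sizes was not tested.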

Other observations

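Detection was also compared, and it turns on dim probes that cross the background line, which lay at 7.37 to 7.44 on an array. Of all 22523 probes, 2 were above background on all 6 altitude arrays and on 0 of 3 sea level arrays, and both are named. Angpt2 is an angiogenic ligand that loosens the contacts of endothelial cells and is a known hypoxia-induced gene. Lcn2 is a secreted iron-binding protein of the acute phase. Lcn2 was picked after its values were seen. Angpt2 measured 7.32, 7.31 and 7.32 at sea level and 7.47 to 7.76 at altitude, at least 1.15-fold higher. Lcn2 measured 7.34, 7.33 and 7.29 at sea level and 7.46 to 7.75 at altitude, at least 1.13-fold higher. Both were singled out by this detection pattern, so no test of the difference is given. The reverse pattern, detected on 3 of 3 arrays at sea level and 0 of 6 at altitude, held for 45 probes, 31 of them named, and sea level replicate 3 detected more probes than any other array. Without that array the counts were 8 and 58.

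The authors' value table also passed other genes that were higher at altitude in the main values without passing there. With 9 arrays these included C1qc, a complement subunit of microglia, with 1.23 ± 0.17 (adjusted p = 0.028), Podxl of endothelium with 1.08 ± 0.15 (adjusted p = 0.028), and Anxa2, a membrane-binding protein that aids plasmin formation, with 2.82 ± 0.42 (adjusted p = 0.0335). In the main values their differences were 0.18 ± 0.04, 0.35 ± 0.07 and 0.17 ± 0.04. Each was without overlap between the groups, as were 4.63% of all probes in that direction. The genes were picked for passing in the authors' values of the same arrays, so the lack of overlap is no separate support. Of the authors' values, 29.3% (sea level replicate 3) to 58.8% (7 km replicate 2) per array were below 0, and low values were floored before log2. The sizes and adjusted p-values from that table can therefore depend on the floor. Its part in the differences of C1qc, Podxl and Anxa2 was not tested.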
